A study of Mus musculus with 20 samples.

Results

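The genes described here are 10 protein-coding genes on mouse chromosome 1 that flank Ikzf2, the gene of the zinc finger transcription factor Helios: Pth2r, Lancl1, Dnpep, Sgpp2, Kcne4, Wdfy1, Asb1, Bok, D2hgdh and Pign. They were chosen from 27178 measured genes because they lie within about 40 Mb of Ikzf2 and because their levels had been seen to move with the library codes of this study, so differences between codes or between genotype labels are descriptions of the choice and carry no test of these genes. RNA was sequenced from striatum and hippocampus of C57BL/6 mice, in 4 groups of 5 libraries: striatum labelled Helios -/-, striatum labelled wild type, hippocampus labelled Helios -/- and hippocampus labelled wild type. All groups shared the strain, and no treatment was labelled. The sources used here do not give the age, the sex, the strain in which the allele was made, the breeding or the part of Ikzf2 that was targeted. They do not say whether the libraries of a group are separate animals. Each group held libraries with Xist, an RNA of the inactive X chromosome of females, below 1 RPKM and others at 58.4 RPKM or more, so no group came from 1 animal alone, but part of the spread behind each p-value may be technical.

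A code of 2 numbers went with each library. Codes 8_4, 8_5, 8_6 and 8_7 were labelled Helios -/- in both tissues, and codes 6_1, 6_6, 6_7 and 6_8 were labelled wild type in both. Code 7_1 was labelled Helios -/- in striatum and wild type in hippocampus, and code 7_6 was labelled wild type in striatum and Helios -/- in hippocampus. The sources used here do not say what the numbers record, and between codes 8 and 6 the genotype and anything else that the first number stands for cannot be told apart.

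Helios belongs to the Ikaros family of transcription factors, which bind DNA through zinc fingers at sites with a GGGAA core and act in lymphocytes and in developing neurons, striatal projection neurons among them. The flanking genes have no common function. Pth2r encodes a receptor for the neuropeptide TIP39. Lancl1 is a glutathione-binding protein of neurons, Dnpep an aspartyl aminopeptidase, Sgpp2 a phosphatase of sphingosine-1-phosphate, and Kcne4 an accessory subunit that dampens voltage-gated potassium channels. Wdfy1 is an endosomal protein with WD repeats and a FYVE domain, Asb1 a substrate-binding subunit of ubiquitin ligases, and Bok a relative of Bcl-2 that promotes cell death. D2hgdh is the mitochondrial enzyme that oxidises D-2-hydroxyglutarate, and Pign adds ethanolamine phosphate to the glycolipid anchor of membrane proteins.

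All positions are on chromosome 1 of GRCm38, with distances between gene midpoints. On the lower side of Ikzf2 (69531207 to 69687351, minus strand) lie Pth2r (65280282 to 65389625, plus strand) at 4.3 Mb and Lancl1 (67000517 to 67038891, minus) at 2.6 Mb. On the higher side lie Dnpep (75308565 to 75317654, minus) at 5.7 Mb, Sgpp2 (78309549 to 78420289, plus) at 8.8 Mb, Kcne4 (78816911 to 78820032, plus) at 9.2 Mb and Wdfy1 (79702262 to 79776143, minus) at 10.1 Mb. Farther out on that side lie Asb1 (91540001 to 91559590, plus) at 21.9 Mb, Bok (93685575 to 93695770, plus) at 24.1 Mb, D2hgdh (93823195 to 93853857, plus) at 24.2 Mb and Pign (105518421 to 105663741, minus) at 36.0 Mb. Sgpp2 overlaps Farsb and Wdfy1 overlaps Mrpl44, both on the opposite strand, and no source used here gives the strand setting of the counting, so reads in these overlaps may belong to either gene. Ikzf2, Sgpp2, Kcne4, Wdfy1 and Pign also overlap annotated non-coding or pseudogene loci.

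Promoter sequences, from 250 bases before to 50 bases after an annotated start, were taken from RefSeq on GRCm38.p6 for the 9 flanking genes matched in that table, 11 promoters in all. They were searched on both strands for TGGGAA alone, a form of the Ikaros family core. The sequences of the 2 promoters that held TGGGAA are shown. The shorter GGGAA was not counted, and its letters also occur in promoters not shown, that of Lancl1 among them. The D2hgdh promoter held 3 matches and the Pth2r promoter 1, and 25.6% of the 32851 promoters in the table held at least 1 match, 0.368% held 3 or more. The capitals mark the match, read as TGGGAA or, from the other strand, TTCCCA. A match describes these letters and is not a bound site. The first is chr1:93824990-93825289, plus strand, and the second chr1:65311007-65311306, plus strand.
D2hgdh: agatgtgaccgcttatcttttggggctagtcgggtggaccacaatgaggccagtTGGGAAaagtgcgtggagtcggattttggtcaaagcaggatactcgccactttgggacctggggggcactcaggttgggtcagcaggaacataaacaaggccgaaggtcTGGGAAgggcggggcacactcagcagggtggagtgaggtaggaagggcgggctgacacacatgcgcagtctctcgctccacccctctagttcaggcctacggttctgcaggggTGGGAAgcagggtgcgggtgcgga
Pth2r: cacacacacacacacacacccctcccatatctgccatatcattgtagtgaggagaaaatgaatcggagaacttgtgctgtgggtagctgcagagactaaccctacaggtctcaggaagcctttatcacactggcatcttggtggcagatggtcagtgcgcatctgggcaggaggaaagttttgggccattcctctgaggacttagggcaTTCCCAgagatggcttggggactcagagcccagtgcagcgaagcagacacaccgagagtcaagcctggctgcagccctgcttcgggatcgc

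Values are RPKM, in which reads are divided by gene length and by an effective size of the library. Decimal marks that were lost from the table as used here were restored first. Between 16705462 and 37578322 reads per library could be recovered. The effective size was 0.731 to 1.061 times the recovered reads, so the values already hold a scaling between libraries. Striatal projection neuron markers, 8 of 8 measured, summed to between 258 and 486 RPKM in striatal libraries, against 14.3 to 21.3 in hippocampal ones. Markers of hippocampal neurons, 7 of 7 measured, summed to between 378 and 533 RPKM in hippocampus, but also to between 68.8 and 396 in striatum. Markers of other cells moved with the codes in part. Blood markers, 4 of 5 measured and none of these at 0, summed to between 210 and 392 RPKM in striatal code 8 libraries, against 521 to 806 in striatal code 6 libraries. In hippocampus they summed to between 412 and 749 in code 8 and between 385 and 924 in code 6. Ependymal markers, 5 of 5 measured, summed to between 18.5 and 33.1 RPKM in hippocampal code 8 and between 14.7 and 18.7 in code 6. In striatum they summed to between 12.6 and 21.5 in code 8 and between 10.2 and 14.3 in code 6. Averaged as log2 of RPKM + 1, they had 1.46 to 1.94 in hippocampal code 8 libraries, against 1.25 to 1.45 in code 6. Tmem212 was at 0 in 8 libraries of each tissue. Meningeal markers, 5 of 5, summed to between 29.4 and 45.5 RPKM in hippocampal code 8 libraries and between 15.6 and 32.1 in code 6, but to between 3.64 and 5.95 in striatal code 8 libraries and between 2.4 and 58.9 in striatal code 6. Choroid plexus markers, 5 of 5, summed to 372 RPKM in the hippocampal library of code 7_6, against at most 87.8 in the other 9 of that tissue. The part of these cells in the differences below was not tested, and in bulk tissue fewer cells of a type and less RNA per cell cannot be told apart.

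Libraries that stood apart bear on single values below. The hippocampal library of code 8_5 was 0.57 higher (median log2 difference from its tissue) for genes under 1 kb and lower by 0.63 for genes over 5 kb, where the other 9 hippocampal libraries lay between -0.07 and 0.08 for the short genes. The hippocampal library of code 8_4 had 6170 RPKM of the mitochondrial rRNA mt-Rnr2, against 529 to 864 in the other 9.

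Ikzf2 itself checks the labels. It had 0.842, 1.09, 0.849 and 0.76 RPKM in striatal code 8 libraries, against 3.66, 2.81, 2.36 and 2.09 in striatal code 6 libraries. In hippocampus it had 0.785, 0.353, 0.617 and 0.55 RPKM in code 8, against 1.32, 1.58, 1.33 and 1.61 in code 6. The groups did not overlap in either tissue. Code 7_1 had 1.11 RPKM in striatum, where it is labelled Helios -/-, and 0.782 in hippocampus, where it is labelled wild type. Code 7_6 had 2.31 RPKM in striatum, labelled wild type, and 1.43 in hippocampus, labelled Helios -/-. Ikzf2 therefore went against both hippocampal labels of these codes, and all directions drawn from hippocampal labels below include those 2 libraries.

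**Figure D1:**
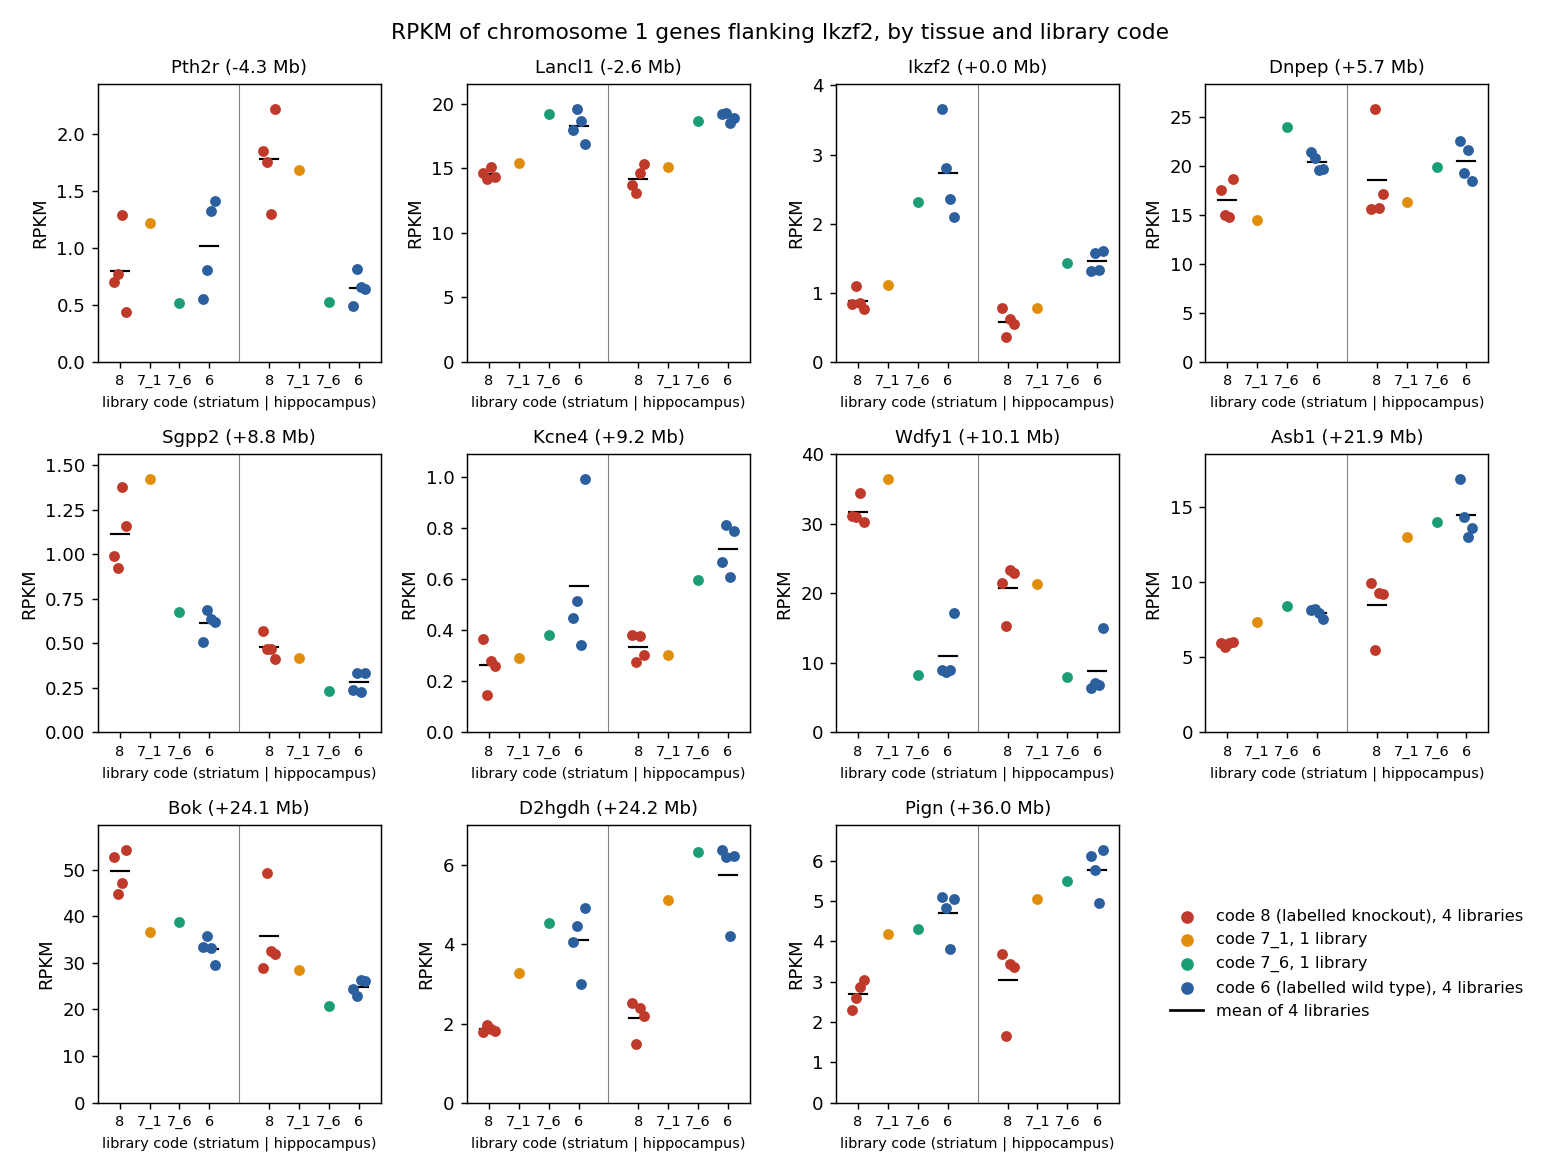
RPKM (vertical axes, from 0) of Ikzf2 and of each flanking gene in every library, by library code within striatum (left of the line) and hippocampus (right), with the distance from Ikzf2 in the panel title. Points are libraries, and bars are means of 4 libraries of code 8 or code 6. Wdfy1 lay between 30.3 and 34.5 RPKM in striatal code 8 libraries and between 8.63 and 17.2 in code 6, and code 7_1 lay with code 8 for Wdfy1 but nearer code 6 for D2hgdh.

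Of the 10 flanking genes, 8 had all code 8 libraries outside the range of all code 6 libraries in striatum, where 3.38% of the 14771 genes tested did, and 9 in hippocampus, where 6.89% did. In both tissues and in the same direction this held for 7 of the 10, Lancl1, Sgpp2, Wdfy1, Asb1, Bok, D2hgdh and Pign, against 0.332% of all genes tested. The share over all genes is given for scale only, since the 10 genes were chosen for this movement. Sgpp2, Wdfy1 and Bok were higher in code 8, as were 0.0677% of all genes by the same rule, and Lancl1, Asb1, D2hgdh and Pign lower, as were 0.264%. Without the hippocampal library of code 8_5 the count in hippocampus came to 10 (9.69% of all genes), and in both tissues to 8 (0.562%). Without that of code 8_4 the counts came to 9 (13.7%) and 7 (0.515%). All 10 genes passed the filter on low values in the fits over 16 and over 20 libraries. Kcne4 passed the filter over 16 libraries only through code 6, since its code 8 values were 0.383 RPKM or less in both tissues. It is among the 9 that lay apart in hippocampus. Kcne4 did not pass the filter in the fit of the striatal labels, nor Sgpp2 in that of the hippocampal labels.

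On the lower side, Lancl1 had 14.6, 14.2, 15.1 and 14.3 RPKM in striatal code 8 libraries, against 18.0, 19.6, 18.7 and 16.9 in code 6. In hippocampus Lancl1 had 13.7, 13.1, 14.6 and 15.3 RPKM in code 8, against 19.2, 19.3, 18.5 and 18.9 in code 6. Its groups lay apart in both tissues, with a ratio of means of 0.796 in striatum and 0.746 in hippocampus. Lancl1 averaged 14.6 ± 0.408 RPKM in striatal code 8 and 18.3 ± 1.16 in code 6, and in hippocampus 14.1 ± 0.958 in code 8 and 19.0 ± 0.36 in code 6 (SD, n = 4 each). Its spread within a code was small for the size of the difference.

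Codes 8 and 6 lay apart for Pth2r in hippocampus and overlapped in striatum. This contrast between tissues uses the values by which the gene was chosen, so the fit below describes it and does not test it. In hippocampus the receptor gene had 1.85, 1.75, 1.3 and 2.22 RPKM in code 8, against 0.487, 0.813, 0.655 and 0.640 in code 6. In striatum it had 0.699, 0.774, 1.29 and 0.435 RPKM in code 8, against 0.550, 0.803, 1.32 and 1.41 in code 6. The ratio of means was 2.75 in hippocampus and 0.784 in striatum. These values rest on 28 to 117 recovered reads per striatal library and 35 to 151 per hippocampal one. The difference between codes in striatum minus that in hippocampus was -0.91 ± 0.22 (log2 of RPKM + 1, SE, 95% interval -1.39 to -0.44), with an adjusted p of 0.78 over all genes in limma. Over all genes, none passed the limma test of whether the code difference depends on tissue (percent of genes called 0.0). Of 14771 genes, 524 had an unadjusted p below 0.05 in that test, and voom called 0.

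The aminopeptidase gene Dnpep is the nearest to Ikzf2 of the flanking genes described here on the higher side. Dnpep had 17.5, 15.0, 14.8 and 18.6 RPKM in striatal code 8 libraries, against 21.4, 20.8, 19.6 and 19.7 in code 6. Its hippocampal values were 15.6, 25.8, 15.7 and 17.1 RPKM in code 8, against 22.5, 19.3, 21.6 and 18.4 in code 6. The striatal groups lay apart and the hippocampal groups overlapped through code 8_5 alone. The hippocampal ratio of means was 0.907 with that library and 0.789 without it, and the striatal ratio was 0.809.

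Sgpp2, a gene of low level, had 0.992, 0.925, 1.38 and 1.16 RPKM in striatal code 8 libraries, against 0.507, 0.684, 0.639 and 0.619 in code 6. Hippocampal libraries had 0.571, 0.466, 0.465 and 0.409 RPKM in code 8, against 0.235, 0.331, 0.225 and 0.333 in code 6. Code 8 was the higher in both tissues without overlap, with ratios of 1.82 in striatum and 1.70 in hippocampus. The hippocampal values rest on 21 to 48 reads per library.

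Kcne4 lies 9.2 Mb from Ikzf2 and was lower in code 8. It had 0.383, 0.275, 0.378 and 0.303 RPKM in hippocampal code 8 libraries, against 0.668, 0.813, 0.608 and 0.788 in code 6, without overlap. In striatum it had 0.367, 0.148, 0.280 and 0.259 RPKM in code 8, against 0.449, 0.516, 0.342 and 0.992 in code 6, with overlap. The ratios were 0.465 in hippocampus and 0.458 in striatum, and the striatal values rest on 9 to 72 reads per library.

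In the fit over 16 libraries Wdfy1 had the largest difference between codes of the 10 genes. It had 31.1, 31.0, 34.5 and 30.3 RPKM in striatal code 8 libraries, against 8.92, 8.63, 8.93 and 17.2 in code 6. In hippocampus it had 21.5, 15.3, 23.4 and 23.0 RPKM in code 8, against 6.31, 7.11, 6.76 and 15.0 in code 6. The groups lay apart in both tissues, though only just in hippocampus, where code 8_5 at 15.3 stood beside code 6_8 at 15.0. The ratio of means was 2.90 in striatum and 2.37 in hippocampus. In both tissues code 6_8 was far above the other 3 code 6 libraries, which lay between 8.63 and 8.93 RPKM in striatum and between 6.31 and 7.11 in hippocampus. The averaged difference, code 8 minus code 6, was 1.36 ± 0.17 (log2 of RPKM + 1, SE, 95% interval 1.00 to 1.73). Under a stricter rule for unsure decimal marks the striatal values of Wdfy1 and the hippocampal values of D2hgdh would have been left out.

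Farther out, the ubiquitin ligase subunit gene Asb1 had 5.90, 5.67, 5.95 and 6.00 RPKM in striatal code 8 libraries, against 8.14, 8.19, 7.90 and 7.50 in code 6. The hippocampal values of Asb1 were 9.92, 5.49, 9.27 and 9.18 RPKM in code 8, against 16.8, 14.3, 13.0 and 13.6 in code 6. Asb1 was lower in code 8 without overlap, with ratios of 0.741 and 0.588 in striatum and hippocampus. Without code 8_5 the hippocampal ratio was 0.657.

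Bok, the cell death gene, was the highest of the 10 in level. It had 52.7, 44.7, 47.2 and 54.2 RPKM in striatal code 8 libraries, against 33.4, 35.7, 33.1 and 29.6 in code 6. Hippocampal Bok stood at 28.9, 49.3, 32.6 and 32.0 RPKM in code 8, against 24.4, 22.8, 26.4 and 26.0 in code 6. Code 8 was higher without overlap in both tissues, at ratios of 1.51 in striatum and 1.44 in hippocampus. The hippocampal ratio was 1.25 without code 8_5, the library that stood high for short genes, and the Bok transcript model is 1432 bp long.

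D2hgdh, 24.2 Mb from Ikzf2, had 1.78, 1.97, 1.86 and 1.81 RPKM in striatal code 8 libraries, against 4.06, 4.46, 3.00 and 4.91 in code 6. In hippocampus it had 2.53, 1.48, 2.38 and 2.20 RPKM in code 8, against 6.38, 6.20, 4.21 and 6.23 in code 6. Code 8 lay wholly below code 6 in both tissues, with ratios of 0.452 in striatum and 0.373 in hippocampus (0.412 without code 8_5). The averaged difference was -0.96 ± 0.10 (log2 of RPKM + 1, SE, 95% interval -1.18 to -0.75), set beside -0.81 ± 0.08 for Ikzf2 itself (95% interval -0.99 to -0.63). The order of D2hgdh and Ikzf2 turned with the scale, at -1.24 against -1.37 with a pseudocount of 0.1 and -1.25 against -1.47 in voom. Code 6_7 was the lowest of the code 6 libraries in both tissues.

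Pign, the farthest of the 10, had 2.31, 2.61, 2.86 and 3.04 RPKM in striatal code 8 libraries, against 5.11, 4.83, 3.82 and 5.05 in code 6. Hippocampal values of Pign were 3.70, 1.65, 3.45 and 3.36 RPKM in code 8, against 6.12, 5.76, 4.96 and 6.27 in code 6. It too was lower in code 8 without overlap, with ratios of 0.575 in striatum and 0.526 in hippocampus. The hippocampal ratio was 0.607 without code 8_5, the library that stood low for long genes, and the Pign transcript model is 6777 bp long.

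Over all 14771 genes, limma called 19 between codes 8 and 6 at an adjusted p below 0.05 (0.129%), of which 7 were flanking genes and 1 was Ikzf2. The count came to between 5 and 21 when single libraries were left out. The count is no support for the genes chosen by it, and 883 genes had an unadjusted p below 0.05. The 7 lie on both sides of Ikzf2, from 2.6 Mb below it to 36.0 Mb above it.

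The library of code 7_1 lay on different sides for near and far genes. Its position was expressed as a percentage of the way from the code 6 mean to the code 8 mean, for genes whose codes did not overlap in that tissue. In striatum code 7_1 stood at 76% for Lancl1, 155% for Dnpep, 152% for Sgpp2 and 113% for Wdfy1, against 26% for Asb1, 26% for Bok, 29% for D2hgdh and 21% for Pign. In hippocampus it stood at 94% for Pth2r, 78% for Lancl1, 72% for Sgpp2, 109% for Kcne4 and 104% for Wdfy1, against 18% for Asb1, 40% for Bok, 12% for D2hgdh and 20% for Pign. For Ikzf2 it stood at 83% in striatum and 72% in hippocampus. Genes up to 10.1 Mb from Ikzf2 thus had code 7_1 at or past most of the way to code 8, and genes from 21.9 Mb outward had it nearer code 6, in both tissues. Aox4, not among the 10 and 11.4 Mb away on the lower side, had code 7_1 at 17% in striatum and 118% in hippocampus. The division between 10.1 and 21.9 Mb was drawn after these values were seen, rests on 1 library per tissue and was not tested.

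In RPKM, code 7_1 had 36.4 for Wdfy1 in striatum and 21.4 in hippocampus, both inside or above the range of code 8. For D2hgdh it had 3.28 in striatum and 5.11 in hippocampus, both inside the range of code 6. For Asb1 it had 7.35 in striatum, below all code 6 and above all code 8 libraries, and 13.0 in hippocampus, level with the lowest code 6 library. Code 7_6 stood near code 6 throughout, between -76% and 40% in striatum and between -52% and 29% in hippocampus. Code 6_8 stood at 51% for Wdfy1 in striatum and 71% in hippocampus, and at -40% to 24% for the 4 far genes over both tissues. The ranges for near and far genes lay apart in both tissues only for code 7_1 among the 10 codes. They also lay apart in hippocampus for code 8_4 (82% to 168% near, 37% to 79% far) and code 8_5 (60% to 138% near, 145% to 305% far), the libraries that stood apart above, and met at 99% in striatum for code 8_4. Each library of code 6 or 8 was left out of the mean of its own code when it was placed. That mean then rests on fewer libraries than for codes 7_1 and 7_6.

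**Figure D2:**
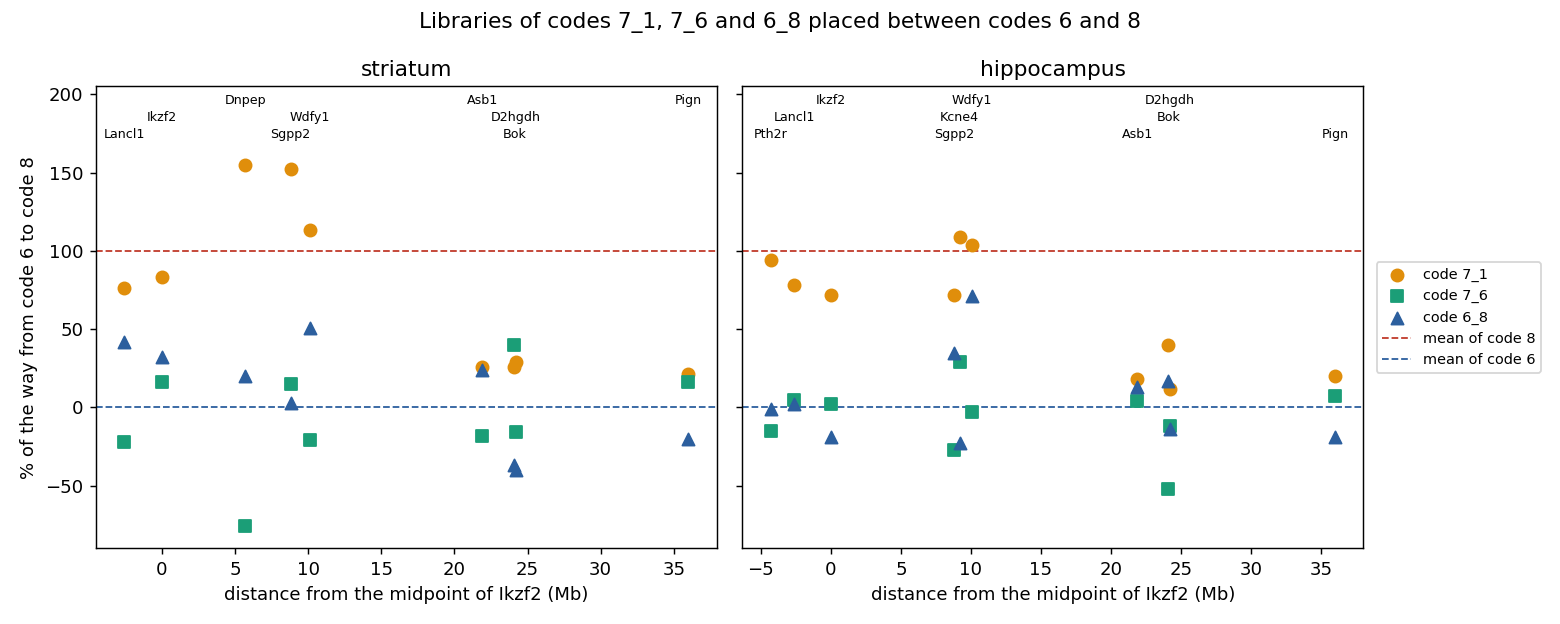
Position of the libraries of codes 7_1, 7_6 and 6_8 between the mean of code 6 (0%, blue line) and the mean of code 8 (100%, red line) on the vertical axis, against distance from Ikzf2 in Mb, in striatum and hippocampus. Each point is 1 library for 1 gene whose codes 8 and 6 did not overlap in that tissue, Ikzf2 included at 0 Mb. Code 6_8 was left out of the code 6 mean it is placed against. Code 7_1 lay at 72% or more up to 10.1 Mb and at 40% or less from 21.9 Mb outward.

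Few other genes in this stretch of chromosome 1 met the same rule. Of the other 336 genes tested within 40 Mb of Ikzf2, 1 had codes 8 and 6 apart in the same direction in both tissues, or 0.298%, which is near the 0.332% of all genes, and 0 were called by limma or by voom (25 had an unadjusted p below 0.05 in limma). On chromosome 1 beyond 40 Mb the share was 0.645% of 465 genes, and on other chromosomes 0.274% of 13507. The median difference between codes over the 336 genes was -0.013 (log2 of RPKM + 1), beside -0.281 over the 10 flanking genes and -0.009 over all genes. Since the members were taken out of the 336 for moving, these counts say only how the rest of the region behaved. The 1 gene was Aox4, an aldehyde oxidase 11.4 Mb below Ikzf2 (58210397 to 58268600). Aox4 averaged 1.36 ± 0.406 RPKM in striatal code 8 and 0.523 ± 0.289 in code 6, and 6.14 ± 0.352 in hippocampal code 8 and 4.49 ± 0.064 in code 6 (SD, n = 4 each). It lies just outside the chosen set, while Pth2r, Kcne4 and Dnpep, which overlapped in 1 tissue, lie just inside it.

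**Figure D3:**
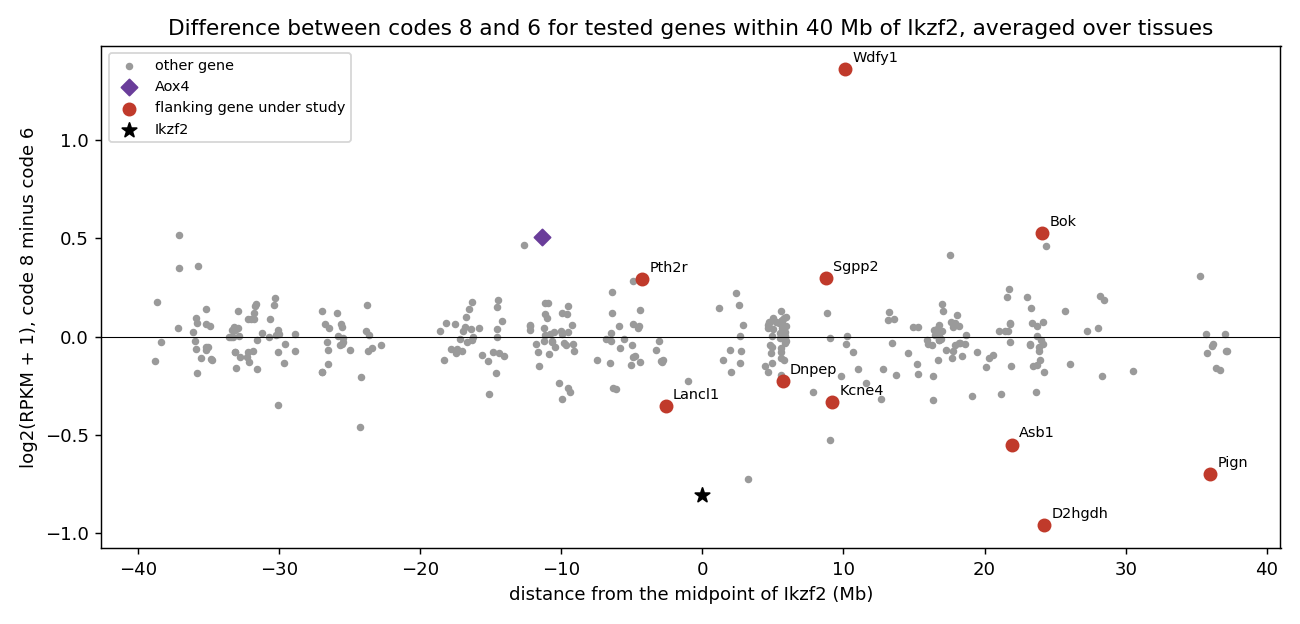
Difference in log2(RPKM + 1), code 8 minus code 6 and averaged over tissues, of the 347 tested genes within 40 Mb of Ikzf2 (vertical axis) against distance from Ikzf2 in Mb. Red points are the 10 flanking genes, the star is Ikzf2, the diamond is Aox4 and grey points are other genes, whose median was near 0. Wdfy1 at 1.36 and D2hgdh at -0.96 are the extremes on this scale, while with a pseudocount of 0.1 or in voom Ikzf2 was lower than D2hgdh.

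The comparison of the flanking genes whose contrast their choice did not use is the one between tissues. It is not wholly free of the choice. The fit took its groups from the labels, so movement with the codes inside a group adds to the spread of these genes. The SE of Wdfy1 was 0.21 in this fit and 0.08 with the replicate number as a block. The test called 3 genes: striatal and hippocampal levels differed at an adjusted p below 0.05 over all genes for Sgpp2 and Bok, higher in striatum, and Asb1, lower. That is 3 of 10 in this fit, where 48.8% of the 14895 genes tested passed. It was 5 of 10 with the block (7043 genes called in all) and without codes 7_1 and 7_6 (6043 called in all). Sgpp2 differed by 0.46 ± 0.05 (log2 of RPKM + 1, striatum minus hippocampus, SE), with an adjusted p of 6.15e-07. Sgpp2 passed the filter on low values through striatum, since of the hippocampal libraries only code 8_4 reached 0.5 RPKM, and its adjusted p was 7.4e-07 with no filter. The size of its difference depends on the scale, at 1.07 with a pseudocount of 0.1 and 1.28 in voom. The striatal Sgpp2 values ran from 0.507 to 1.42 RPKM and the hippocampal ones from 0.225 to 0.571, and they crossed only through striatal code 6_1 and hippocampal code 8_4. Bok differed by 0.47 ± 0.11, with an adjusted p of 0.00122 in limma, and overlapped between tissues. Asb1 differed by -0.63 ± 0.10, with an adjusted p of 3.39e-05 in limma, and its tissues overlapped only through hippocampal code 8_5 at 5.49 RPKM.

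The other 7 did not pass. Wdfy1 differed by 0.44 (95% interval -0.01 to 0.89) and D2hgdh by -0.30 (95% interval -0.61 to 0.01), and both passed when the replicate number was kept as a block or when codes 7_1 and 7_6 were left out. Pign differed by -0.19 (-0.44 to 0.06), Pth2r by -0.17 (-0.47 to 0.12), Kcne4 by -0.11 (-0.27 to 0.04) and Dnpep by -0.05 (-0.22 to 0.13). Lancl1 was level between tissues, at 0.00 (-0.12 to 0.12). Ikzf2, not among the 10, was higher in striatum by 0.41 ± 0.10, with an adjusted p of 0.00211 in limma.

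**Figure D4:**
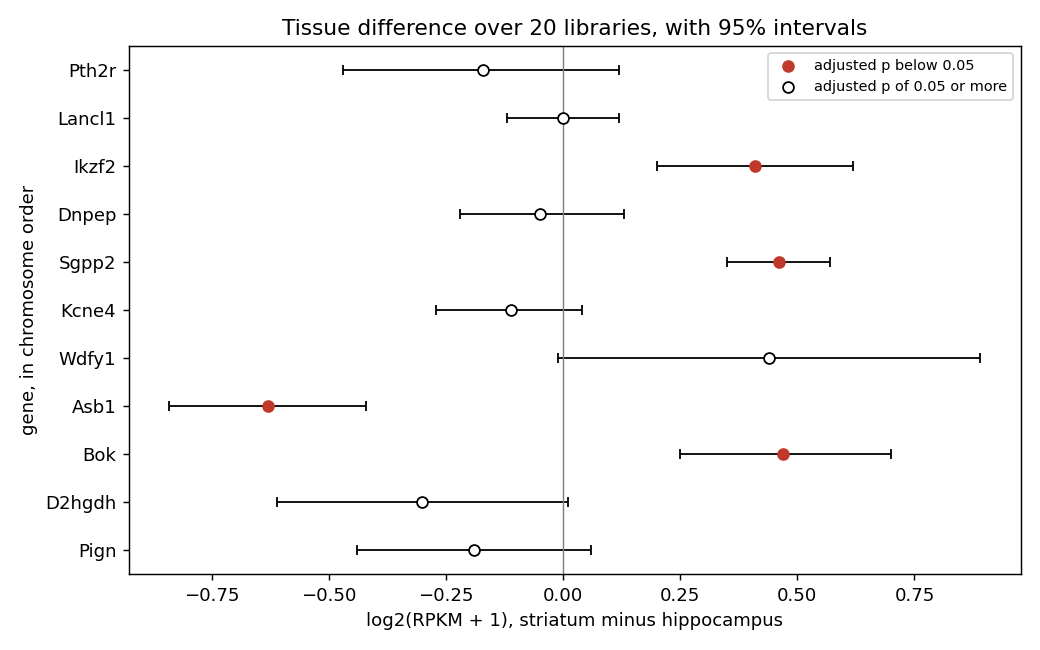
Difference in log2(RPKM + 1), striatum minus hippocampus (horizontal axis), of Ikzf2 and the 10 flanking genes over 20 libraries, in chromosome order. Points are fitted differences, bars are 95% intervals, and filled points had an adjusted p below 0.05: Ikzf2, Sgpp2, Asb1 and Bok.

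Per length, the levels spanned a wide range. In striatal code 6 libraries the means ran from Bok at 32.9 RPKM through Dnpep at 20.4, Lancl1 at 18.3, Wdfy1 at 10.9, Asb1 at 7.93, Pign at 4.70 and D2hgdh at 4.11 to Pth2r at 1.02, Sgpp2 at 0.612 and Kcne4 at 0.575. The library ranges of neighbours in this order met or overlapped for Dnpep and Lancl1, for Lancl1 and Wdfy1, for Pign and D2hgdh, for Pth2r and Sgpp2 and for Sgpp2 and Kcne4.

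Most of the flanking genes that could be compared followed Ikzf2 across libraries, in the same or the opposite direction. Over 20 libraries, on log2(RPKM + 1) with the tissue mean taken out, the gene of 13751 most like Ikzf2 was Lancl1, with a Pearson r of 0.881. Wdfy1 ran opposite to Ikzf2 at -0.856, D2hgdh had 0.825, Pign 0.815, Bok -0.811 and Asb1 0.756. Dnpep had 0.486 and Pth2r -0.432. Sgpp2 and Kcne4 were too low for the filter of this comparison. The 5 other genes most like Ikzf2 were Kdm3a (0.85), Vegfa (0.839), Arl6 (-0.816), Maff (0.801) and Pofut1 (0.789), and the 5 most like Lancl1 were Bcat1 (0.824), Apln (0.819), Utp14b (0.816), Mterf1b (-0.812) and Kdm3a (0.802). Of these, Utp14b lies on chromosome 1 at 9.1 Mb above Ikzf2, with a difference between codes of -0.53 (log2 of RPKM + 1) and codes that did not lie apart in both tissues. These points share the library codes, and the flanking genes were chosen for moving with those codes. High ranks of the flanking genes beside Ikzf2 follow from that choice. The values describe the common division and no p is given.

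Under the labels as given, Wdfy1 averaged 32.7 ± 2.66 RPKM in striatum labelled Helios -/- and 10.4 ± 3.84 in striatum labelled wild type (SD, n = 5 each). In hippocampus it averaged 18.2 ± 6.60 RPKM in libraries labelled Helios -/- and 11.3 ± 6.66 in those labelled wild type, with overlap through codes 7_1 and 7_6. D2hgdh averaged 2.14 ± 0.642 RPKM in striatum labelled Helios -/- and 4.20 ± 0.735 in wild type, and 2.98 ± 1.91 in hippocampus labelled Helios -/- and 5.62 ± 0.939 in wild type. By label, limma called 2 of 14614 genes in striatum (0.0137%), Wdfy1 and Ikzf2, which came to 0 when any striatal library other than those of codes 6_1 and 6_8 was left out. It called 0 of 14408 in hippocampus (0.0%), where 665 had an unadjusted p below 0.05 and voom called 0.

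The authors' deposited table for striatum, whose statistics are per transcript and whose adjusted p-values were recomputed here, called 44 of 12885 transcripts (0.341%), 28 of them spike-in controls and 6 in flanking genes, namely Bok, D2hgdh, Lancl1, Pign, Sgpp2 and Wdfy1. The authors' deposited table for hippocampus called 34 of 15140 (0.225%), 27 of them spike-ins and 5 in flanking genes, namely D2hgdh, Kcne4, Lancl1, Pth2r and Wdfy1. For Wdfy1 the authors' deposited tables gave log2 fold changes of 1.03 (SE 0.13) in striatum and 0.85 (SE 0.15) in hippocampus. For D2hgdh the authors' deposited tables gave -0.63 (SE 0.13) and -0.64 (SE 0.16), and for Pth2r -0.02 (SE 0.12) in striatum and 1.08 (SE 0.15) in hippocampus. For the transcript of Lancl1 in the authors' deposited tables the values were -0.82 (SE 0.10) and -0.62 (SE 0.13). For the transcripts of Asb1 the authors' deposited tables gave -0.11 (SE 0.1) and 0.01 (SE 0.07) in striatum. In hippocampus the Asb1 values were -0.15 (SE 0.15) and -0.2 (SE 0.13). Asb1, whose codes lay apart in both tissues, was thus called in neither of the authors' deposited tables.

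The grouping behind the authors' deposited tables was compared with the labels by a regression, chosen after the data were seen, of their log2 fold changes on the values of the 10 libraries of a tissue. In hippocampus, over 7870 genes, code 7_1 took a weight of 0.159, where the code 8 libraries took 0.13 to 0.194. Code 7_6 took -0.145, where the code 6 libraries took -0.174 to -0.148. In striatum, over 8288 genes, code 7_1 took 0.137 and code 7_6 took -0.158, on the sides of their labels. In hippocampus the authors' deposited fold changes correlated across genes at a Pearson r of 0.842 with differences formed after the genotypes of codes 7_1 and 7_6 were exchanged, and of 0.77 with differences as labelled. With the exchange, the hippocampal difference was 1.24 ± 0.21 for Wdfy1, -0.93 ± 0.21 for D2hgdh and 0.76 ± 0.09 for Pth2r (log2 of RPKM + 1, SE). As labelled it was 0.71 ± 0.37 for Wdfy1, -0.83 ± 0.25 for D2hgdh and 0.43 ± 0.21 for Pth2r. No source used here says which labels are right.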

How the data were processed

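RNA of striatum and hippocampus was sequenced as 75 bp single reads from stranded mRNA libraries, per the labels' protocols. The submitters' processing notes name BWA 0.7.4, featureCounts, HTSeq, DESeq2, cutadapt 1.3 and SAMtools among their tools and mm10 as the build, without their roles. The authors deposited RPKM for 27179 genes in 20 libraries and 1 table per tissue of their own comparison, whose log2 fold changes, standard errors and p-values stand 1 column to the right of their headings. Groups and replicate numbers came from the titles. The hippocampal library titled replicate 10 of Helios -/- carried the tissue tag striatum and was placed by its title.

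In the RPKM table as used here 51.1% of the values had lost their decimal mark. Since RPKM comes from whole reads, a gene length and a library size, each mark was placed where all libraries gave whole reads (within 0.001) for 1 gene length, close to the values of other libraries of the tissue and to the annotated exon length, toward which restored values lean. This gave values for 27178 genes. The rules were revised several times after the data were seen, on library totals and gene lengths. The last revision eased the rule for an unsure mark after it had left out Wdfy1 in striatum and D2hgdh in hippocampus, 2 of the genes described here. It left 428 genes unsure in striatum and 747 in hippocampus, where the stricter rule left 498 and 814, and the stricter rule is given as an alternative. For both genes the placed values have the direction of the authors' deposited log2 fold changes. The restoration was tested on simulated data.

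limma 3.58.1 (trend and robust) in R 4.3.3 fitted log2(RPKM + 1) over all genes with at least 0.5 RPKM in at least 5 libraries and no unsure mark, with Benjamini-Hochberg adjustment and calls below 0.05. Fold changes on this scale understate changes of low genes. TMM factors, computed directly from the recovered reads, and limma voom on those reads gave alternatives. RefSeq and GENCODE annotation of GRCm38 (mm10), matched by Entrez identifier, gave symbols for 25274 genes. The 10 genes, the lists and the tests were chosen with earlier results of these data known. Other genes were named by these rules: the 5 with the largest absolute Pearson r with Lancl1 and with Ikzf2, genes within 40 Mb whose codes 8 and 6 lay apart in both tissues, and genes that overlap a member. Xist, mt-Rnr2 and the genes called outside chromosome 1 were named after their values were seen. Alternatives changed the pseudocount (0.1), the filter, the scaling, the test, unsure marks, single libraries, codes 7_1 and 7_6, and the replicate block.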

Additional observations from a re-analysis of the deposited data

Results flagged for a closer look

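For each flanking gene, the groups of 5 libraries with the same tissue and label were searched for 1 library far from the other 4. Such a library was found in 7 of 40 sets of values, which share the same libraries. The genes were chosen for moving with the codes, so this count is a description and is not set against chance. Of the 7, 5 were libraries of codes 7_1 or 7_6. Code 7_1, labelled wild type in hippocampus, had 1.68 RPKM of Pth2r against 0.487 to 0.813 in the other 4, and 15.1 RPKM of Lancl1 against 18.5 to 19.3. The same code, labelled Helios -/- in striatum, had 7.35 RPKM of Asb1 against 5.67 to 6.0 in the other 4, and 3.28 RPKM of D2hgdh against 1.78 to 1.97. Code 7_6, labelled Helios -/- in hippocampus, had 6.33 RPKM of D2hgdh against 1.48 to 2.53. The other 2 were code 6_8 in striatum, labelled wild type, with 17.2 RPKM of Wdfy1 against 8.18 to 8.93, and with 0.992 RPKM of Kcne4 against 0.342 to 0.516.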

How the results depend on the processing

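None of the values recomputed changed direction where it had been called. The number of flanking genes called between tissues was 3, and 2 with a filter at 1 RPKM, which Sgpp2 did not pass, 5 with the replicate number as a block, 5 without codes 7_1 and 7_6 and 3 to 5 without single libraries. The 5 were reached by leaving out the hippocampal library of code 8_5, where D2hgdh and Pign also passed, and under the block and without codes 7_1 and 7_6 Wdfy1 and D2hgdh also passed. The block called 7043 genes between tissues (7262 without it, 6816 to 8886 without single libraries), 17 between codes 8 and 6 (19 without it) and 0 for the dependence on tissue. The evidence that replicate numbers pair the libraries was mixed. Correlations of same-numbered libraries across tissues ran between -0.167 and 0.223, with 8 of 10 above 0.1, while the bar for pairing was all 10. Xist was low in the same 3 codes in both tissues, and 3 of 10 striatal libraries correlated best with their own number. The lowest correlation was that of code 8_5, whose hippocampal library stood apart for gene length. Of the code 6 libraries, code 6_8 had the highest Wdfy1 in both tissues. The main fit between tissues took the 20 libraries as independent, so it makes no allowance for libraries of 1 code that share an animal. The 19 genes called between codes 8 and 6 came to 5 to 21 without single libraries, and to 10 or fewer without any 1 library other than hippocampal codes 8_5 and 8_6 and striatal code 6_7. By label in striatum the 2 calls came to 1 with no filter on low values, 1 with unsure marks kept, 0 without codes 7_1 and 7_6, 0 under the stricter rule on unsure marks and 0 to 2 without single libraries, with 2 left only without code 6_1 or 6_8. Under that stricter rule, added after the data were seen, Wdfy1 and D2hgdh left the fits over 16 and 20 libraries, 13 genes were called between codes 8 and 6, 4 of them flanking genes, and 3 flanking genes between tissues. In hippocampus 0 genes were called by label, 0 to 0 without single libraries, and 2 once codes 7_1 and 7_6 swapped their genotypes. The counts of flanking genes with codes 8 and 6 apart came to 9 to 10 in hippocampus and 7 to 8 in both tissues without code 8_5 or 8_4. The dependence on tissue gave 0 to 0 genes without single libraries. Where a count moved, the cause was not tested. Depth limits Kcne4, Sgpp2 and Pth2r most, which rest on as few as 9, 21 and 28 reads in a library.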

Other observations

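Outside chromosome 1, limma called 11 genes between codes 8 and 6, where 7 were flanking genes and 1 was Ikzf2. Chosen after their values were seen, they include Rnf167 at 0.74 ± 0.13 and Depp1 at -0.69 ± 0.12, which had the largest differences of the 11, the glucose transporter gene Slc2a1 at -0.50 ± 0.07, Ddit4 at -0.52 ± 0.09, the histone demethylase gene Kdm3a at -0.51 ± 0.08, Txnip at -0.38 ± 0.07 and Klf2 at 0.51 ± 0.09 (log2 of RPKM + 1, code 8 minus code 6, SE). The adjusted p was 0.00624 for Slc2a1, 0.034 for Rnf167, Ddit4, Kdm3a and Klf2, 0.043 for Txnip and 0.0453 for Depp1.

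Xist was below 1 RPKM in codes 6_1, 6_7 and 8_7 in both tissues, and at 58.4 RPKM or more in the other 14 libraries, the lowest of them hippocampal code 8_5.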
